A study of Mus musculus with 12 samples.

Results

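Chromatin accessibility after 2 days in vehicle was compared with accessibility at day 0 in mouse myeloid progenitors. The comparison uses the 4 libraries labelled Day 0 without treatment (Day0, 2 biological replicates) and Day 2 in vehicle (Vehicle, 2 biological replicates), of 12 in the series, and 746 regions, all those listed as different between them in the authors' deposited table. All libraries came from cells labelled as granulocyte-monocyte progenitors of C57BL6 bone marrow carrying ER-HOXA9, a fusion of HOXA9 with the estrogen receptor. The medium of every group held stem cell factor, 10% FBS and 0.5 micromolar beta-estradiol, so the Day0 cells were also grown with the fusion's ligand. Day0 cells received no agent, and Vehicle cells received DMSO for 2 days, so time in culture and DMSO cannot be told apart. The other 8 libraries were taken on day 2 after 200 nM GSK-LSD1 (LSD1i), 5 uM mercaptopurine (6MP), 5 uM cerulenin (CER) or all 3 drugs (Combo), with 2 replicates each. Both Day0 library names, and no others, end in the letter P, while Vehicle replicate 1 ends in R and Vehicle replicate 2 has no letter. Time and whatever the letter P stands for therefore cannot be told apart either.

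ATAC-seq marks open chromatin by the sites where the Tn5 transposase can insert adapters into DNA. HOXA9 is a homeobox transcription factor that keeps immature myeloid cells dividing, and estradiol keeps the fused protein active, so the progenitors remain blocked in differentiation. Stem cell factor acts through the receptor kinase KIT, whose signal reaches AP-1 factors such as Jun and Fos, and is damped by phosphatases of the Dusp family. Enhancers, more than promoters, tend to change in accessibility between states of blood cells, and lineage factors of the ETS, RUNX and C/EBP families bind many of them.

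Promoter sequences of 4 listed regions are shown because they stand for the main groups below: Jun, Dusp1 and Klf6, early-response genes whose promoters were listed as opened, and Ms4a3, a progenitor gene whose promoter was listed as closed. Each window runs from 250 bases before to 50 bases after the start in the RefSeq annotation of GRCm38.p6, the assembly behind mm10, and is printed 5′ to 3′ on the gene's strand. Capitals mark any match, on either strand, to one of 6 short motifs. The letters searched for AP-1 factors were TGANTCA. Those for the ETS family were GGAAGT, and those for RUNX factors were TGTGGT. C/EBP factors were searched with TTGCNNAA, GATA factors with the letters AGATAA, and the core of the CTCF motif with CNAGNNGGC. Overlapping matches of different motifs were each counted.
Jun, chr4:95052173-95052472, minus strand: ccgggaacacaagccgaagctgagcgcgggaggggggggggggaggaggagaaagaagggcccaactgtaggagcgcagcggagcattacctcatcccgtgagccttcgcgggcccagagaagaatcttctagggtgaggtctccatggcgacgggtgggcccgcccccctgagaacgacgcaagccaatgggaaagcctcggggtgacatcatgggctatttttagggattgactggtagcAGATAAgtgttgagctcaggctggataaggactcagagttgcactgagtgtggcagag
Dusp1, chr17:26508423-26508722, minus strand: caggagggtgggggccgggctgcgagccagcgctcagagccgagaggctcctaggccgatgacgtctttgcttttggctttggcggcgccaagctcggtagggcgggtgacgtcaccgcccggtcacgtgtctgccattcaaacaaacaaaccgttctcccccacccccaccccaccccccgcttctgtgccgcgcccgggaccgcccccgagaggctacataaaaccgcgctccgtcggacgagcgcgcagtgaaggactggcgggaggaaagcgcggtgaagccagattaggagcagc
Klf6, chr13:5861239-5861538, plus strand: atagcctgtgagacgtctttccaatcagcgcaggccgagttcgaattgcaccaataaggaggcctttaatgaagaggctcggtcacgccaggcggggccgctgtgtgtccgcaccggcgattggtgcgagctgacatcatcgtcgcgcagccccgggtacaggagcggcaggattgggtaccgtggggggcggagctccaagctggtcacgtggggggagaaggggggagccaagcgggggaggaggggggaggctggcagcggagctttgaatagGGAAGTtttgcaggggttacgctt
Ms4a3, chr19:11640802-11641101, minus strand: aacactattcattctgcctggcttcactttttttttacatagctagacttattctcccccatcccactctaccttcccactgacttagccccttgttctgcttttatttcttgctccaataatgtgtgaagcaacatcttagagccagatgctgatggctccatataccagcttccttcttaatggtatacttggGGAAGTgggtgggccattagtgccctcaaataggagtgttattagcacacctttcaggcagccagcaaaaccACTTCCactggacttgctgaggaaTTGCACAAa
The Jun window held 1 GATA match, the Klf6 window 1 ETS match and the Dusp1 window none of the 6 motifs. The Ms4a3 window held 2 ETS matches and 1 C/EBP match, with a GC content of 44.7%, against 60.0% for Jun, 67.0% for Dusp1 and 63.0% for Klf6. Of the 138 windows that lay in opened listed regions, 4.35% held an AP-1 match, 26.1% an ETS match and 18.8% a RUNX match. Of all 32851 windows the shares were 7.81%, 23.8% and 16.8%, and of the 12713 windows in regions called in all 4 libraries they were 4.96%, 29.9% and 13.1%. C/EBP, GATA and CTCF core matches stood in 7.97%, 5.8% and 26.8% of the opened windows, against 8.26%, 5.99% and 29.7% of the windows in called regions and 10.8%, 11.2% and 20.8% of all windows. The widest gap between opened windows and windows in called regions was at RUNX. Only 6 windows lay in closed regions, too few for shares to be read.

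The 4 libraries held between 44447 and 53839 called peaks, the fewest in Day0 replicate 2, whose recovered background of 2.44 fragments per position was also the lowest, against 4.02 to 4.55 in the other 3. Read totals are not in the files used here. Of the 13 granulocyte-monocyte progenitor markers, 11 had a promoter window, and 9 of these windows lay in a peak in all 4 libraries, against 40.1% of all genes with a window. The windows of Elane and Prtn3, genes of granule proteases, held no peak. The T and NK cell markers had such a peak at 2 of 11 windows, the erythroid markers at 2 of 8, the mast cell, basophil and eosinophil markers at 3 of 11, the dendritic markers at 2 of 9, the B cell markers at 4 of 7, the megakaryocyte markers at 4 of 6 and the stromal and endothelial markers at 0 of 6. An open promoter is not expression, so this check of the label is limited to accessibility.

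The authors' deposited table has 719 regions that opened after 2 days in vehicle, 1.8% of the roughly 39869 regions that the ranks of its p-values and FDRs imply were tested, and 27 closed (0.0677%). Most changes were small. The log2 fold in the authors' deposited table reached 1 in size at 47 opened regions and 2 closed ones, and stayed under 0.5 at 265 opened regions. Opened regions fell mainly in introns (200 regions), between genes (196) and within 1 kb of a gene's start (187), as annotated in the authors' deposited table. The median log2 fold in the authors' deposited table was +0.64 in introns and +0.63 between genes, but +0.33 at the promoters within 1 kb. The closed regions were 8 promoters within 1 kb, 7 regions 1 to 3 kb from a start, 5 between genes, 4 in introns and 3 elsewhere.

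The largest folds in the authors' deposited table belonged to weak regions, among them introns of Dock4 (+1.51), Eif5b, a translation initiation factor gene (+1.43), and Kcnj6, a potassium channel gene (+1.28). Kcnj6 had no called peak in Day0, and Eif5b gave a signal of 2.61 and 2.43 in Day0 and 3.15 and 4.02 in Vehicle on the scale explained next.

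The individual libraries were then read through the summit signal, which is the log2 of the fragment pileup at a region's highest summit over the library's background, centred on the library's median. Over the 39427 regions with a peak in all 4 libraries, replicates differed by a median of 0.155 (Day0) and 0.197 (Vehicle), while the means of the 2 Vehicle and the 2 Day0 libraries differed by a median of 0.174. Without the centring, scaled by depth alone, the median of all regions was +0.194 higher in Vehicle, and changes below are relative to that shift. Of the 662 opened listed regions with a signal in all 4 libraries, 638 (96.4%) had both Vehicle libraries above both Day0 libraries, as did 22.7% of all regions tested. All 23 closed listed regions with a signal had both Vehicle libraries below both Day0 libraries, as did 22.9% of all regions. These libraries are the ones the table was made from, so these counts describe the listed regions and are no independent check.

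Tested with limma over all 39427 regions, 28 regions rose (0.071%) and 4 fell (0.0101%) at an adjusted p of 0.05. The authors' deposited table lists 23 of the 28 as opened and none of the 4 as closed. All 28 had both Vehicle libraries above both Day0 libraries, and the 4 had both below. The sizes ran from 0.71 to 1.3 on the log2 scale for the 28, and only 1 of them held a promoter window, against 24.0% of all regions tested. With 1 library left out, so that 1 group had a single library whose spread was taken from the other groups, the calls changed in number. There were 7 rising and 0 falling regions when Day0 replicate 1 was left out, 0 and 0 when Day0 replicate 2 was, 490 and 701 when Vehicle replicate 1 was, and 0 and 1 when Vehicle replicate 2 was. The differences at the 32 regions kept their direction in all 4 cases, and at 29 of them they stayed within 1.5 times of the full value. The exceptions were near Ak4 (-0.50), Suco (0.57) and Cd44 (0.59), each when Vehicle replicate 2 was left out. Centring by intensity kept 22 of the 32 calls, and of the 4 falling regions it kept that of Adcy7 alone. Scaling by depth alone gave 1 and 0, a fit without the trend of variance with signal 0 and 0, and a fit of only the 4 libraries 0 and 0. In the fit as reported, unadjusted limma p-values under 0.05 stood at 4420 regions.

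**Figure D1:**
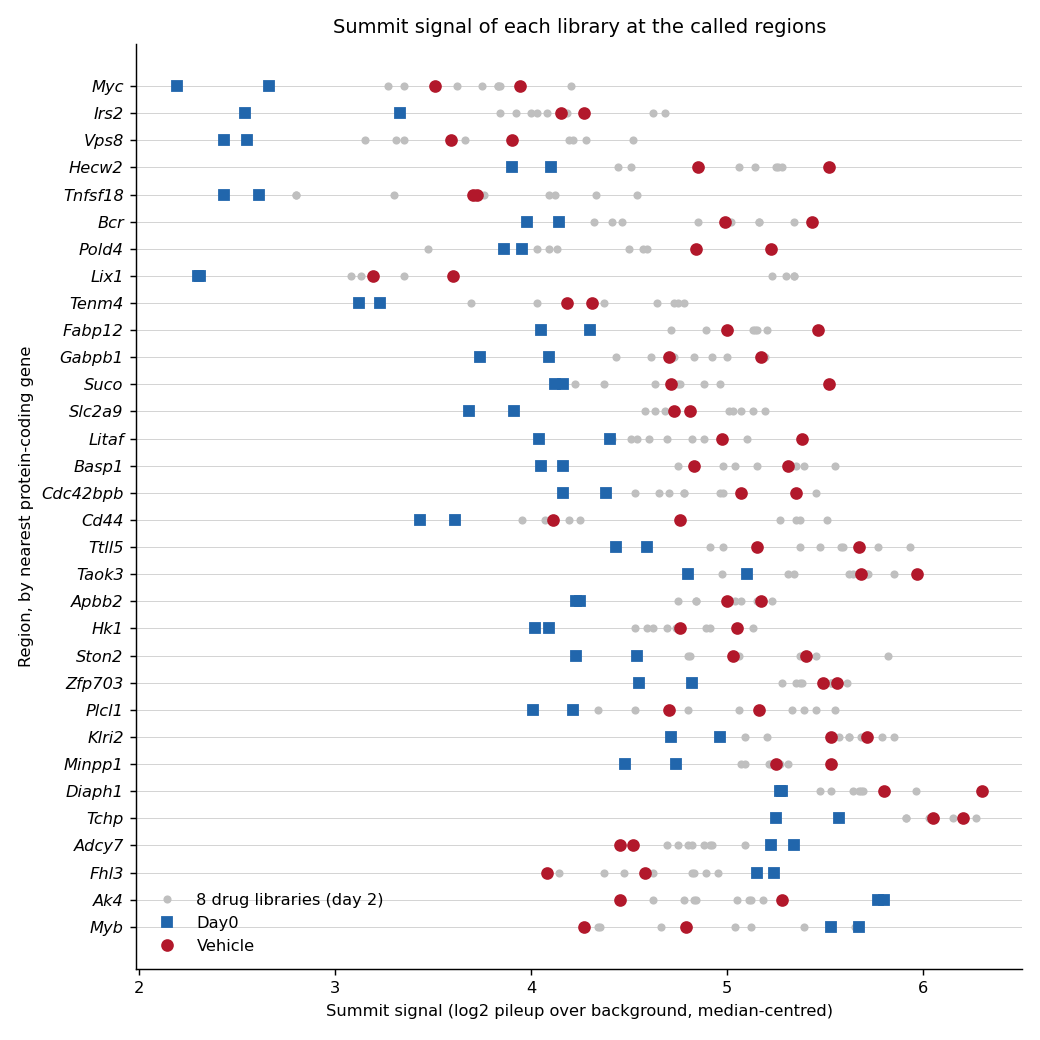
Summit signal (horizontal axis, log2) in each of the 12 libraries at the 32 regions called by limma, named by the nearest protein-coding gene and ordered by the Vehicle minus Day0 difference. Squares are Day0, red circles Vehicle and grey circles the 8 drug libraries. At each of the 28 upper regions both Vehicle circles lie to the right of both Day0 squares, and at the 4 lowest they lie to the left.

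Among the 4 regions that fell, the largest change was inside Myb, which encodes a transcription factor needed by dividing blood progenitors. At this region (chr10:21145981-21147575, mm10) the summit signal was 5.53 and 5.67 in Day0 and 4.79 and 4.27 in Vehicle, a difference of -1.07 ± 0.20 (SE; limma adjusted p = 0.0242, n = 2 per group), and its limma adjusted p was 0.0584 with centring by intensity. Of the 8 drug libraries, 7 were below both Day0 libraries there. The region inside Fhl3, which encodes a LIM-domain protein (chr4:124695738-124696349), gave 5.15 and 5.24 in Day0 against 4.58 and 4.08 in Vehicle (-0.87 ± 0.17, limma adjusted p = 0.0384, and 0.0612 with centring by intensity). A region 1946 bases from Adcy7, an adenylyl cyclase gene (chr8:88269220-88270244), gave 5.22 and 5.34 against 4.52 and 4.45 (-0.80 ± 0.16, limma adjusted p = 0.0384). At both of these all 8 drug libraries were below both Day0 libraries. The last lay 58668 bases from Ak4, which encodes a mitochondrial adenylate kinase (chr4:101355482-101357810), with 5.80 and 5.77 in Day0 and 5.28 and 4.45 in Vehicle (-0.92 ± 0.19, limma adjusted p = 0.0486, and 0.0756 with centring by intensity). Here the Vehicle libraries lay further apart from each other than the nearer one lay from Day0.

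Of the regions that rose, the lowest adjusted p belonged to a region inside Hecw2, a ubiquitin ligase gene (chr1:53939715-53941891). Its summit signal was 4.10 and 3.90 in Day0 and 4.85 and 5.52 in Vehicle (+1.19 ± 0.18, limma adjusted p = 0.0076). A region in Fabp12, of the fatty acid-binding protein family (chr3:10273043-10273879), went from 4.30 and 4.05 to 5.00 and 5.46 (+1.06 ± 0.17, limma adjusted p = 0.0181). One near the start of Slc2a9, a urate transporter gene (chr5:38493744-38494446), gave 3.91 and 3.68 in Day0 and 4.73 and 4.81 in Vehicle (+0.98 ± 0.17, limma adjusted p = 0.0183). The groups did not overlap at any of these, and all 8 drug libraries were above both Day0 libraries at each. Tenm4, a teneurin gene, held a region that rose by 1.07 ± 0.19 (chr7:96630274-96631249, limma adjusted p = 0.0183). Regions in Ttll5 and Gabpb1, the latter coding for a subunit of an ETS-family complex, changed by +0.90 and +1.02, and one 88970 bases from Irs2, an adaptor of insulin signalling, by +1.27, each at a limma adjusted p of 0.0183. The region of Pold4, a DNA polymerase delta subunit gene (6303 bases away, chr19:4239937-4240792), stood apart in the drug libraries. It gave 3.95 and 3.86 in Day0 and 4.84 and 5.22 in Vehicle (+1.12 ± 0.20, limma adjusted p = 0.0183), but only 6 of 8 drug libraries exceeded both Day0 libraries and both Combo libraries, at 3.85 and 3.47, were below them.

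**Figure D2:**
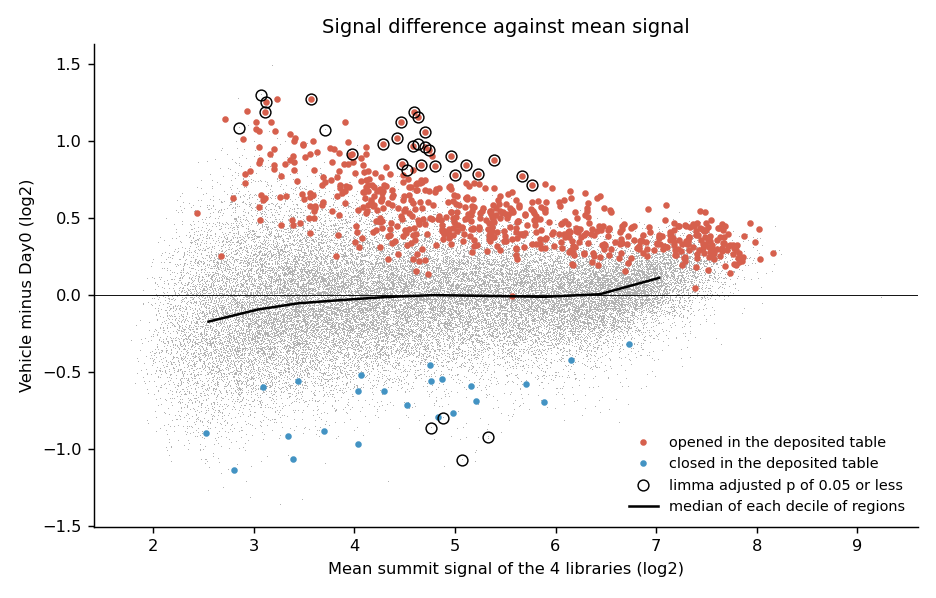
Difference between the Vehicle and Day0 means (vertical axis, log2) against the mean summit signal of the 4 libraries (horizontal axis, log2), 1 point per region for 39427 regions. Coloured points are regions in the authors' deposited table, open circles the 32 regions past limma's threshold, and the line joins the medians of 10 deciles by mean signal. The line runs from -0.173 in the weakest decile to +0.111 in the strongest, and the strongest holds 148 opened regions.

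The regions of highest signal were shifted together. With the regions ranked by mean signal into 10 deciles, the median of all regions in the top decile was +0.111, against values between -0.0541 and +0.00479 in deciles 3 to 9. The top decile held 148 of the opened listed regions, and 48.6% of these held a promoter window, fewer than the 75.4% of all regions in that decile. In decile 8 the shares were 9.72% of the opened and 40.3% of all regions. The median difference of the 148 was 0.337, and 0.19 after a centring that removes the trend with signal. The median log2 fold of the same regions in the authors' deposited table was 0.28. The 5 opened regions of lowest FDR in the authors' deposited table were the promoters of Ppp2r3d, Jun and Crlf2, of the non-coding Frmd8os, and the Bcr region described below. Crlf2 codes for a subunit of the TSLP receptor, and its promoter gave 7.67 and 7.70 in Day0 and 7.96 and 8.17 in Vehicle (+0.38 ± 0.27, limma adjusted p = 0.623). Ppp2r3d, a phosphatase subunit gene, gave 7.53 and 7.39 against 7.84 and 7.97 (limma adjusted p = 0.52), so the groups did not overlap at either promoter, but neither passed limma's threshold. Whether a difference in enrichment between libraries has a part in these promoter changes was not tested.

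The listed regions of the immediate-early and AP-1 genes were among these strong regions. Of the 21 genes in the list, 4 had a region opened in the authors' deposited table (Jun, Jund, Fos and Klf6), or 19.0%, against 1.82% of all protein-coding genes. These 21 genes had 107 tested regions, more per gene than the 39427 regions of all 21883 genes, so the shares of genes are not on the same footing. At 38.3% of the 107 regions both Vehicle libraries were above both Day0 libraries, against 11.2% below, beside 22.7% and 22.9% of all regions. The shares of all regions span every level of signal, and none was taken for regions of matched signal. All regions of the top decile had a median difference of +0.111. None of the 107 passed limma's threshold. The Jun promoter region (chr4:95050394-95053972), whose sequence is given above, had a summit signal of 7.24 and 7.03 in Day0 and 7.49 and 7.71 in Vehicle, a difference of +0.46 ± 0.23 (limma adjusted p = 0.456). Jund, which codes for a second Jun-family subunit, gave 7.48 and 7.43 against 7.75 and 8.01. At Klf6, a zinc finger factor gene (chr13:5860706-5862247), the values were 6.75 and 6.71 against 7.06 and 7.22 (+0.41 ± 0.18, limma adjusted p = 0.386). The groups did not overlap at any of the 3 promoters. The Fos regions were not at its promoter: one lay 17910 bases away, with 7.91 and 7.72 in Day0 and 8.05 and 8.26 in Vehicle, the other 8178 bases away, with 7.59 and 7.56 against 7.84 and 7.96. After centring by intensity the differences shrank to +0.30 at Jun, +0.22 at Jund, +0.31 at Klf6 and +0.10 and +0.12 at Fos. The list's median difference over 107 regions was 0.0934, and 0.0617 with that centring, beside -0.0119 and -0.00763 over all regions.

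Feedback regulators of growth factor signalling had 2 of 30 genes opened (6.67%, against 1.82% of all protein-coding genes), over 166 tested regions, again more per gene than over all genes. At 27.1% of these both Vehicle libraries were above both Day0 libraries and at 17.5% below, beside 22.7% and 22.9% of all regions. Dusp1, a phosphatase of MAP kinases induced by growth signals, had both its promoter (chr17:26507634-26509721) and a region 1927 bases away listed. The promoter gave 7.17 and 6.96 in Day0 and 7.43 and 7.60 in Vehicle, and the nearby region (chr17:26502661-26503664) 5.38 and 5.33 against 5.80 and 6.05. The differences were +0.45 ± 0.21 (limma adjusted p = 0.42) and +0.57 ± 0.15 (limma adjusted p = 0.135). At the nearby region all 8 drug libraries, 5.58 to 6.51, were above both Day0 libraries. Dusp10, a phosphatase acting on JNK and p38, had a region with 2.81 and 3.05 in Day0 and 3.62 and 4.06 in Vehicle.

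Of the 204 regions of progenitor and self-renewal genes, 27.0% had both Vehicle libraries above both Day0 libraries and 22.1% below, near the shares of all regions. The authors' deposited table had an opened region at 4 of 25 genes (16.0%): Lyl1, Erg, Hlf and Cdk6. Of all protein-coding genes 1.82% had one, with fewer tested regions per gene. By limma a region rose 88599 bases from Myc (chr15:62078960-62080258), with 2.66 and 2.19 in Day0 and 3.51 and 3.94 in Vehicle (+1.30 ± 0.26, limma adjusted p = 0.0384), while the Myb region described above fell. The Myc region is weak, with Day0 pileups of 27 and 11 fragments, where the smallest at any summit of Day0 replicate 2 was 10. The authors' deposited table does not list it. Erg, an ETS factor gene of blood stem cells, had an intron region with 6.45 and 6.42 in Day0 and 6.62 and 7.08 in Vehicle, and a region upstream (chr16:95611854-95612679) with 3.72 and 3.68 against 4.48 and 4.52. The upstream difference was +0.80 ± 0.20 (limma adjusted p = 0.11), and all 8 drug libraries lay above both Day0 libraries there. The Lyl1 promoter, a basic helix-loop-helix factor gene, gave 7.28 and 7.28 in Day0 and 7.39 and 7.66 in Vehicle, so that Vehicle replicate 1 lay close to Day0. The Cdk6 intron region (chr5:3358533-3359470) stood out in the drug libraries: Vehicle at 4.49 and 4.61 was above Day0 at 4.10 and 4.22, but 6 of 8 drug libraries were below both Day0 libraries, down to 3.40. Cdk6 encodes a kinase of the G1 phase, and its difference, +0.39 ± 0.20, did not pass (limma adjusted p = 0.471).

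Myeloid transcription factors had opened regions at 3 of 27 genes (11.1%, against 1.82% of all protein-coding genes): Zeb2, Nfe2 and Stat3. These genes had 226 tested regions, again more per gene than over all genes. At 27.4% of the 226 both Vehicle libraries were above both Day0 libraries and at 22.1% below, beside 22.7% and 22.9% of all regions. Zeb2, a zinc finger repressor, gave 4.25 and 3.64 in Day0 and 4.45 and 4.79 in Vehicle inside an intron (chr2:45049078-45050195, +0.68 ± 0.19, limma adjusted p = 0.168). The primary granule genes had 1 opened gene of 14 (7.14%), Srgn, which encodes the granule proteoglycan serglycin, and 1 closed gene, Ms4a3. The nearest protein-coding gene of the region listed under Srgn was Kifbp, 14074 bases away. At the Ms4a3 promoter (chr19:11640434-11641349), whose window was printed above, the signal was 4.30 and 4.34 in Day0 and 3.84 and 3.77 in Vehicle, a difference of -0.52 ± 0.22 (limma adjusted p = 0.36). The drug libraries split there, with 4 above and 4 below both Day0 libraries, from 3.28 in LSD1i replicate 2 to 4.66 in Combo replicate 2. Over the 29 tested regions of the granule genes, 34.5% had both Vehicle libraries below both Day0 libraries, beside 22.9% of all regions, and 20.7% had both above, beside 22.7%. Mpo, the myeloperoxidase gene, gave 5.45 and 5.27 in Day0 and 5.23 and 4.71 in Vehicle at its promoter (-0.39 ± 0.16, limma adjusted p = 0.354). The other 7 progenitor marker promoters with a peak in all 4 libraries gave differences from -0.09, at Kit and Gfi1, to +0.23 at Cd34, and none passed limma's threshold. No gene of the mature neutrophil list (22 genes), the p53 target list (21) or the interferon list (23 matched) had a region opened or closed in the authors' deposited table, a count near the 1.82% of all protein-coding genes opened. Of the 39 mature neutrophil regions tested, 7.69% had both Vehicle libraries above Day0 and 30.8% had both below, beside 22.7% and 22.9% of all regions, and none passed limma's threshold. The granulocyte-monocyte progenitor markers gave 15.9% above and 31.7% below over 63 regions, with a median difference of -0.0774 that was -0.0184 with centring by intensity, beside -0.00763 over all regions.

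Other list genes with regions in the authors' deposited table were Bcr, Dock4, Rhob and Cdc42, each opened, and Arhgef3, closed. Bcr, known as the fusion partner of ABL1 in chronic myeloid leukaemia, held a region that rose by limma (chr10:75125251-75126103): 4.14 and 3.98 in Day0, 4.99 and 5.43 in Vehicle, +1.15 ± 0.22 (limma adjusted p = 0.0237, and 0.0588 with centring by intensity). All 8 drug libraries, 4.32 to 5.34, were above Day0 there. A second Bcr region differed: Day0 gave 5.91 and 5.59 and Vehicle 5.95 and 6.15, and no drug library was above or below both Day0 libraries. Dock4, the largest fold of a named gene in the authors' deposited table at +1.51, had no call in Day0 replicate 2, 1.91 in Day0 replicate 1, and 2.26 and 3.67 in Vehicle, so it entered no test on the signal. Vehicle replicate 2 held most of that change. Rhob had 7.71 and 7.73 in Day0 and 7.80 and 8.07 in Vehicle, and its difference of +0.22 turned to -0.01 with centring by intensity. Arhgef3 had a region (chr14:27340816-27342204) with 4.79 and 4.43 in Day0 and 3.93 and 4.04 in Vehicle (-0.63 ± 0.17, limma adjusted p = 0.15). Both LSD1i libraries, at 4.99 and 5.28, and both Combo libraries, at 5.67 and 5.54, were above both Day0 libraries there. Of the 8 drug libraries, 3 were below both.

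Adhesion genes had 3 of 26 opened in the authors' deposited table (11.5%, against 1.82% of all protein-coding genes): Itga4, Cd47 and Icam2. At 21.7% of their 120 tested regions both Vehicle libraries were above both Day0 libraries and at 19.2% below. Neither share exceeded the 22.7% and 22.9% of all regions. The region listed under Icam2 lay inside another gene, Ern1. By limma a region inside Cd44, the hyaluronan receptor gene, rose (chr2:102815009-102815943): 3.61 and 3.43 in Day0 and 4.11 and 4.76 in Vehicle, +0.91 ± 0.19 (limma adjusted p = 0.0494, and 0.0612 with centring by intensity). The authors' deposited table assigns that region to Slc1a2. Tnfsf18, the ligand of the receptor GITR, had a region 14637 bases away (chr1:161519927-161520743) with 2.61 and 2.43 in Day0 and 3.72 and 3.70 in Vehicle (+1.19 ± 0.24, limma adjusted p = 0.0454). Hk1, a hexokinase gene, gave 4.02 and 4.09 against 4.76 and 5.05 (chr10:62287396-62288377, +0.85 ± 0.17, limma adjusted p = 0.0384). At these 3 regions all 8 drug libraries lay above both Day0 libraries. Stress-response genes had 3 of 22 opened (13.6%): Psat1 of serine synthesis, at 3 regions, and the amino acid transporter genes Slc7a11 and Slc7a5. None of these 5 regions passed limma's threshold, with differences from +0.24 to +0.49. Over the 92 tested regions of the stress-response list, both Vehicle libraries were above both Day0 libraries at 29.3% and below at 17.4%. The chemokine and cytokine list had 1 of 38 (Il1r1, the interleukin-1 receptor gene, with 2 regions), the estrogen response list 1 of 18 (Cyp26b1) and the monocyte list 1 of 23 (Cd36). Those shares were 2.63%, 5.56% and 4.35%, beside 1.82% of all protein-coding genes. All lists in this paragraph that are given with a count had more tested regions per gene than all genes together.

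Closed regions of the authors' deposited table lay near predicted genes in 6 of the 10 with the largest folds, and Abcb10, a mitochondrial transporter gene, had the lowest FDR of these 10. At Abcb10 (chr8:123980177-123980912) the signal was 5.60 and 5.50 in Day0 and 4.85 and 4.87 in Vehicle, -0.69 ± 0.16 (limma adjusted p = 0.101), and all 8 drug libraries, 4.15 to 4.96, lay below both Day0 libraries. Col4a1, a collagen IV gene, gave 3.69 and 3.90 in Day0 and 2.51 and 3.25 in Vehicle, with 7 of 8 drug libraries below. A region inside Runx1, listed as closed under the predicted gene Gm26626, had peaks only in both Day0 libraries among the 4, at 3.61 and 3.68.

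**Figure D3:**
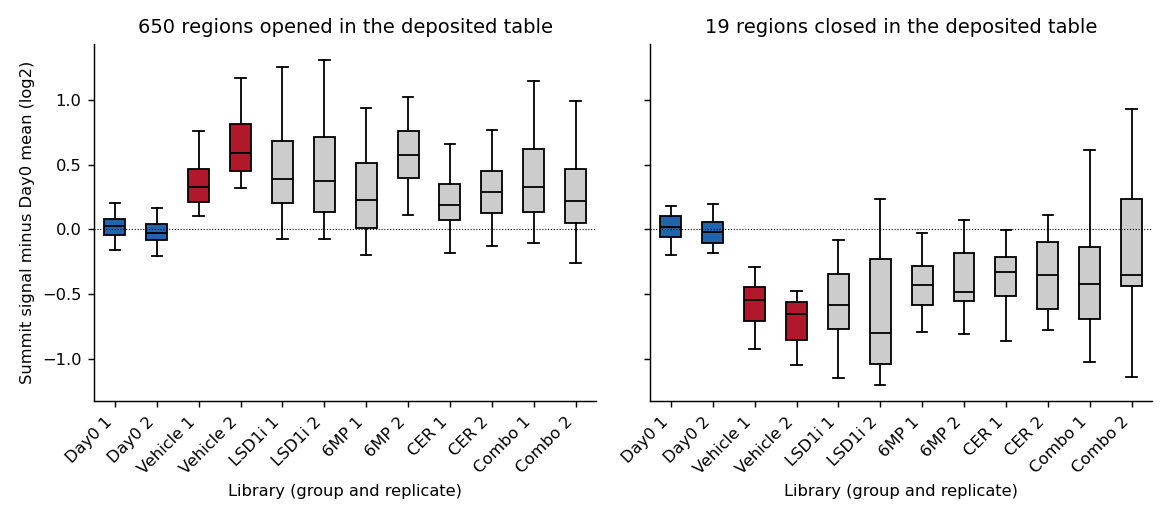
Summit signal minus the Day0 mean (vertical axis, log2) in each library at the 650 opened (left) and 19 closed (right) listed regions called in all 12 libraries. Boxes show quartiles, lines medians and whiskers the 5th to 95th percentiles over regions. Every day 2 library has a median above 0 on the left and below 0 on the right, and the Vehicle medians are 0.325 and 0.588, then -0.549 and -0.651.

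The drug libraries were taken on the same day. The authors' deposited table gives no level for them, and whether they entered its processing is not stated. They share the Day0 libraries as reference, so a low or high Day0 value counts against all of them alike. At the opened regions the median signal above the Day0 mean was 0.325 and 0.588 in Vehicle, 0.389 and 0.378 in LSD1i, 0.224 and 0.578 in 6MP, 0.185 and 0.288 in CER and 0.33 and 0.217 in Combo. At the closed regions it ran from -0.803 to -0.33 in the drug libraries. Both Day0 libraries lay below all 8 drug libraries at 219 of 651 opened listed regions (33.6%), against 4.54% of the 33368 regions called in every library. Both lay above all 8 at 8 of 19 closed ones (42.1%), against 5.14%. Of the 28 regions that rose by limma, 25 had all 8 drug libraries above both Day0 libraries, and of the 4 that fell, 3 had all 8 below. A contrast of the mean of all 5 day 2 groups with Day0, chosen after seeing the data, called 1242 regions up (3.72%) and 909 down (2.72%) by limma at an adjusted p of 0.05. It called 229 of 650 opened listed regions (35.2%) and 11 of 19 closed ones (57.9%), among them both Il1r1 regions, Zeb2, Dusp10, Itga4 and Abcb10. Both contrasts use the same 2 Day0 libraries, and the mean of the day 2 groups includes the 2 Vehicle libraries. The table was made from these same libraries. A higher share of calls at its listed regions was therefore built in and is no independent check.

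Peaks that appeared or vanished could not enter the signal test. In 1725 regions both Vehicle libraries and neither Day0 library had a called peak (2.77% of the 62297 regions called in any of the 4), and in 512 regions the reverse held (0.822%). These were weak peaks, with a median pileup of 24.5 fragments for the gained and 19.0 for the lost, against 45.5 over all regions. Promoter windows lay in 1.68% of the gained and 3.32% of the lost regions, against 16.1% of all. Of the regions in the authors' deposited table, only 20 opened ones were among the gained and 2 closed ones among the lost. Day0 replicate 2 was the shallowest of the 4 libraries, and the part of depth in these counts was not tested. Leaving out Day0 replicate 1 raised the gained regions to 6064 and leaving out Vehicle replicates 1 and 2 to 5713 and 3835, while leaving out Day0 replicate 2 raised the lost ones to 3865. The lost count was 1384 with Day0 replicate 1 set aside, 1380 with Vehicle replicate 1 set aside and 1195 in the absence of Vehicle replicate 2. Leaving out a library removes a condition, so all these counts could only rise, whichever library it was.

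**Figure D4:**
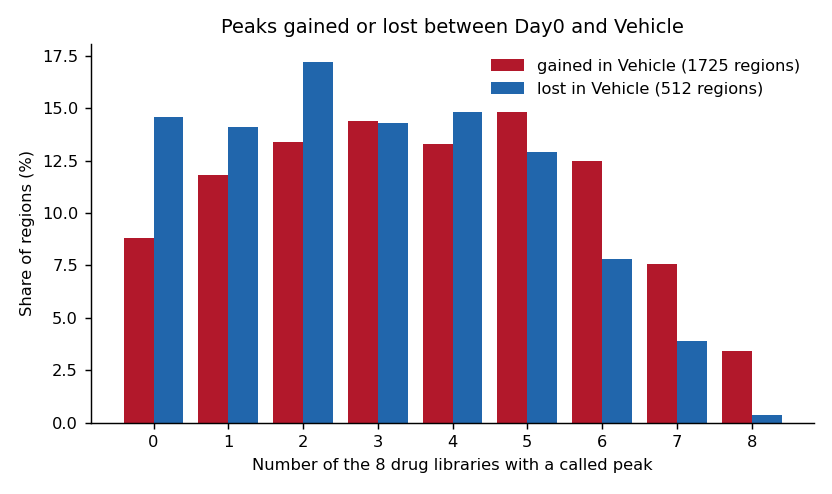
Share of the 1725 gained and 512 lost regions (vertical axis, percent) by the number of the 8 drug libraries with a called peak there (horizontal axis). Of the gained regions 8.81% have a peak in none of the drug libraries and 3.42% in all 8, and of the lost regions 14.6% and 0.391%.

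A few gained peaks were picked out after their values were seen, by their height over the local background. Most gained and lost peaks, those inside Xkr6 and Slc9a3 included, are not in the authors' deposited table, so they describe calls and not tested differences. The highest was inside Xkr6 (chr14:63681440-63681849), where the summits stood 13.18 and 14.11 times over background in Vehicle, with 88 and 101 fragments, and 4 drug libraries also had a peak. Next to blood regulators, a peak 140 bases from Lmo2, a partner of stem cell transcription factors (chr2:103982018-103982937), reached 7.31 and 8.31 times background with 47 and 54 fragments, and 6 drug libraries shared it. A distal peak 366577 bases from Runx1 was low, at 2.79 and 2.64 times, while one 215615 bases away (chr16:93041689-93042490) reached 7.97 and 6.07 times. Inside Spi1, the gene of the ETS factor PU.1 (chr2:91115140-91115436), a peak of 3.81 and 5.96 times background appeared in Vehicle and in none of the drug libraries. Near Klf4, a zinc finger factor gene, 2 distal peaks were gained, at 5.98 and 7.93 times 199466 bases away and at 6.08 and 4.99 times 45950 bases away. Some gained calls sat beside stronger peaks: one 829 bases from Sh2b3, an adaptor that restrains cytokine signalling, had 475 and 463 fragments in Vehicle but was only 1.69 and 1.78 times its local background. Among the lost peaks the highest was inside Slc9a3, at 6.49 and 7.39 times background in Day0, and one 5986 bases from Nfil3, a bZIP factor gene, stood at 5.22 and 5.52 times. Blood regulators lost peaks too, inside Csf1r (1.9 and 2.62 times) and Runx1 (3.57 and 3.39) and 8685 bases from Cebpd (3.24 and 3.97). Of the 27 myeloid transcription factor genes, 11 had a gained peak and 5 a lost one. Over all 21883 protein-coding genes, with fewer tested regions per gene, the counts were 1508 and 497.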

How the data were processed

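ATAC-seq peak lists of 12 libraries and the authors' table for Vehicle against Day0 were used. DiffBind, MACS2 2.1.2 (a peak caller), Picard 2.18.26, SAMtools 1.9, the aligner Bowtie2 and Trimmomatic 0.38 are named, with mm10, per the submitters' processing notes; settings are not given in the sources used here. The authors deposited, for each summit, a score, its fold ratio over local background, and the −log10 of its p-value and q-value (all q up to 0.01). The authors' deposited table holds log2 levels and folds, with the scaling not stated, and a p-value and FDR, for regions up to an FDR of 0.05.

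The fragment pileup and background of each summit were solved from the deposited fold and p-value with Python 3.11.15 and scipy 1.17.1, and came out whole, within 0.001 on the −log10 p scale, at 100% of summits. Peaks overlapping by 1 base were joined into 73156 regions, and each library's smallest background served as its depth. The log2 signal was median-centred over 33368 regions called in all 12 libraries and fitted with limma 3.58.1 in R 4.3.3 (6 group means of 12 libraries, variance trend), two-sided, with Benjamini-Hochberg adjustment over 39427 regions. A drug library without a peak in a region was missing there. The fit was tried on simulated data with independent normal noise of a fixed size and no missing libraries. That trial does not bear on depth, centring or the trend with signal. With 2 against 2 libraries an exact p cannot fall below 0.333. Regions took the nearest of 21883 protein-coding RefSeq genes or the table's name, and 473 of 477 list genes matched. A region is named by a gene's position only, which need not be its target. Where 2 listed regions shared a joined region they were counted once in the medians and in the all-library contrast.

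The members and gene lists were chosen with earlier results of these data known. Named regions are the 10 opened and 10 closed of largest fold and the 5 opened of lowest FDR in the table, all closed and the 10 first opened limma calls, and list genes with a listed or called region; predicted genes are named only where fewer than 5 others remain. Pileups of 10 to 14 fragments at the smallest summits limit the precision at weak regions. Alternatives covered centring, libraries, block, name suffix, variance trend, filter, pseudocount, peak threshold and overlap. One item is not reported here.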

Additional observations from a re-analysis of the deposited data

How the results depend on the processing

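The 746 listed regions fell to 268 at an FDR of 0.01 and to 49 at an absolute log2 fold of 1 or more. The 32 limma calls (28 opened, 4 closed) became 1 (1 and 0) when scaled by depth, 0 (0 and 0) with only the 4 libraries and no block, and 0 (0 and 0) without the variance trend. They became 1414 (613 and 801) with a term for the name suffix R, and 2151 (1242 and 909) for the mean of the 5 day 2 groups minus Day0, a contrast chosen after seeing the data. Centring by intensity left 1 closed call. Leaving out 1 library gave between 0 and 1191 calls, 0 to 490 opened and 0 to 701 closed. The cause of these shifts was not tested. A filter of a mean pileup of 30, pseudocounts of 5 and 0.5, and centring by intensity gave 33, 24 and 30 opened calls, and centring by intensity shared 22 of the 32 calls, losing 7 opened ones, Bcr and Cd44 among them, and 3 closed ones.

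The labels do not say whether same-numbered libraries were paired. Deviations of same-numbered Day0 and Vehicle libraries correlated at 0.0873 over 39427 regions, which cannot settle it. With the replicate number as a block there were 1076 calls (545 and 531) in the 4 libraries and 34 opened and 6 closed in all 12.

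Gained regions, 1725 with all 4 libraries, numbered 2291 to 6064 with 1 library left out. Lost regions were 322 at a q of 0.0001, 843 where a stricter overlap was asked of a peak and its region, and 1195 to 3865 with 1 library left out. Because a library left out removes a condition, both the gained and the lost count could only rise with it. Of 77 named regions the alternatives on the same contrast reversed 1, Rhob (-0.01, centring by intensity). The mean of day 2 groups reversed 3: Cdk6 (-0.15), Arhgef3 (0.04) and a distal region near the predicted gene Gm46496 (0.03).

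With 2 libraries a group, and read totals not used here, the smallest called difference was 0.71, and some differences up to that size and above it did not pass, such as 0.80 near Erg.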
